A study of Homo sapiens with 4 samples.

Results

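The protocadherin genes were examined in RNA-Seq libraries of HEK293T WT and HEK293T Helz-null cells. Members were the genes of the deposited count table whose symbol starts with PCDH, without antisense genes and pseudogenes. Of 73 such symbols, 3 antisense genes and 4 pseudogenes were dropped, which left 66 protocadherins of 27011 genes. They comprised 15 alpha, 16 beta and 22 gamma members of the clusters on chromosome 5 and 13 non-clustered genes. The study compared 2 libraries of each cell line to ask how the loss of HELZ, a helicase with a zinc finger, changes the transcriptome. HEK293T cells are an established line from human embryonic kidney. The Helz-null cells were derived from them with Cas9 and a guide to exon 8 of the helz gene, and carry a deletion that shifts the reading frame. They are 1 edited line, so that the edit and any other difference between this line and the WT cells cannot be told apart, and no treatment was applied to either group.

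Protocadherins are membrane proteins of the cadherin superfamily, best known from neurons. In the alpha and gamma clusters, each member has a large first exon of its own, which encodes the extracellular cadherin repeats and the membrane span and is spliced to constant exons that all members of the cluster share. A neuron typically switches on a few of these first exons, and the resulting set of proteins, which bind their like on other cells, lets a neuron tell its own branches from those of others. Beta members are genes of a single coding exon without a constant part, and the non-clustered protocadherins lie apart on several chromosomes, each with its own cytoplasmic tail.

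The constant exons decide what a count of an alpha or gamma gene means, and are shown first for that reason. On GRCh37 (hg19), the gamma constant exons lie on the plus strand of chromosome 5, at chr5:140874374-140874432, chr5:140884960-140885048 and chr5:140890514-140892542. They have 59, 89 and 2029 bases, 2177 bases in all, and are part of the annotated transcript of all 22 gamma members. The alpha constant exons lie at chr5:140358534-140358592, chr5:140362060-140362148 and chr5:140389212-140391932 on the same strand and have 59, 89 and 2721 bases, or 2869 bases in all. The 2 small coding exons of both clusters are printed from the GRCh37 sequence, with capitals for the positions at which the alpha and the gamma exon hold the same base.
alpha constant exon 1: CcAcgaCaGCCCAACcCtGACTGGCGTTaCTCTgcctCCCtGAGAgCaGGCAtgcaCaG
gamma constant exon 1: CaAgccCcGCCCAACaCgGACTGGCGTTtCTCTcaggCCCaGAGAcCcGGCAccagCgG
alpha constant exon 2: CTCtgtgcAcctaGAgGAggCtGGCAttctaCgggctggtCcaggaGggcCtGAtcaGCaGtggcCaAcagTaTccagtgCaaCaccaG
gamma constant exon 2: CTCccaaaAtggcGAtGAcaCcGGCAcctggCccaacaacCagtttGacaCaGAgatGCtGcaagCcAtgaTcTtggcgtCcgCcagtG
The first exons were identical at 39 of 59 positions (66.1%) and the second at 29 of 89 positions (32.6%). The clusters are thus told apart by sequence, whereas a read that lies within the gamma constant exons belongs to all 22 gamma members alike.

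The edited gene was checked first. HELZ (chr17:65066560-65242105, minus strand) had 97.6 and 102 CPM (counts scaled to a library size of 1000000 after TMM normalization) in the WT libraries and 36.1 and 37 CPM in the Helz-null libraries, with a log2 fold change (log2FC, Helz-null over WT) of -1.44 (standard error [SE] 0.0427, adjusted p = 5.36e-24). Its reads were lower in both Helz-null libraries, and the groups did not overlap. Library totals ran from 41745401 to 70464140 counts, and a floor of 3 counts corresponded to 0.0421 to 0.0718 CPM. The floor takes only the error of counting into account. The 6 markers of the HEK293T line summed to between 1480 and 1490 CPM in WT and to between 1550 and 1560 CPM in Helz-null cells. Of the marker lists of other cell types, 4 genes of mature neurons summed to between 20.6 and 21.8 CPM in WT and between 22.6 and 24.4 CPM in Helz-null cells. The sums were between 1.84 and 2.13 CPM in WT and between 2.27 and 2.44 CPM in Helz-null cells for 4 blood genes, and between 0.287 and 0.498 CPM and between 0.757 and 0.851 CPM for 4 endothelial genes. The lines did not overlap in these 3 sums or in that of the HEK293T markers, each of which was higher in Helz-null cells. They overlapped for 5 fibroblast genes (14.7 to 15.3 and 15.0 to 16.4 CPM, with DCN at 0) and 2 hepatocyte genes (0.156 to 0.239 and 0.126 to 0.189 CPM). Of the 4 endothelial genes, only 1 had enough counts to be tested. The share of all genes without overlap was not counted, so nothing is read from these sums. The part of the marker genes in the results was not tested. In bulk RNA, fewer cells that express a gene and less RNA per cell cannot be told apart.

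Genes with at least 40 counts over the 4 libraries were tested, and a gene was called at a false discovery rate (FDR) under 0.005. Of 15989 tested genes, 1575 (9.85%) had a higher level in Helz-null cells and 1857 (11.6%) had a lower one, so that 21.5% were called in either direction. Up-regulated genes made up 45.9% of the calls, and 60.3% of them (2204 up, 1450 down) with scaling by library size only. Of the 66 protocadherins, 51 were tested, and 26 were called up-regulated and 1 down-regulated. The 22 gamma genes account for most of the 26, and the counts below show that they are not 22 separate observations. The median log2FC was 0.85 over the gamma members, which restates the reads they share, 0.088 over the 4 tested beta members and 0.41 over the 10 tested non-clustered genes, beside -0.0018 for all genes tested.

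**Figure D1:**
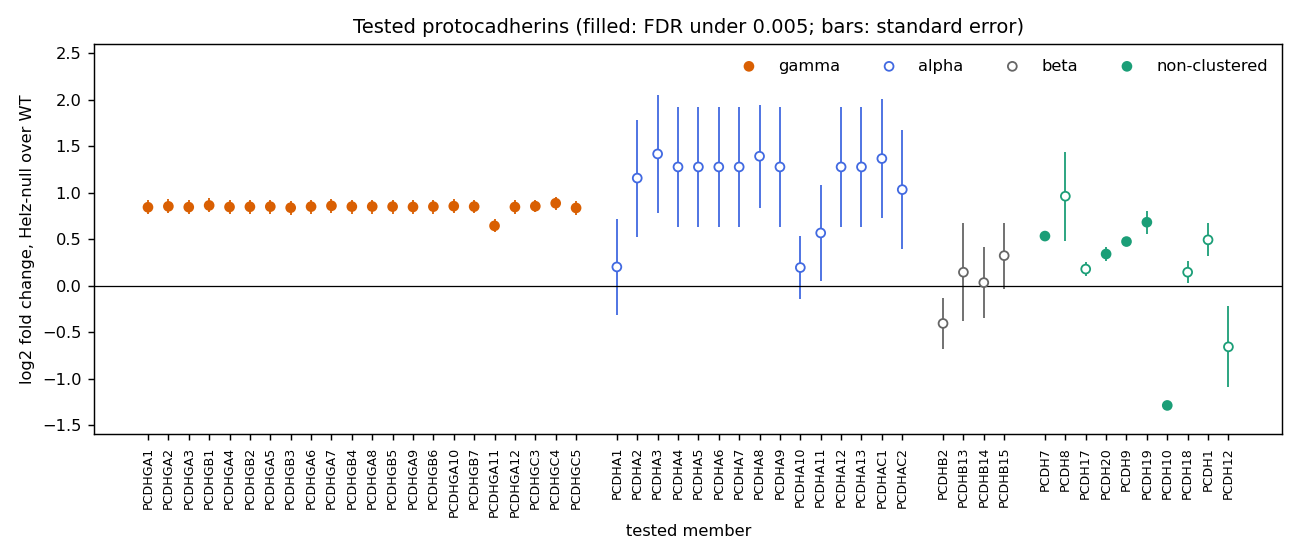
Log2FC of the 51 tested protocadherins (y axis, Helz-null over WT, with the SE as bars) by class, filled where the FDR was under 0.005. The 22 gamma members lie between 0.64 and 0.89, the 15 alpha and 4 beta members are open circles with long bars, and PCDH10 stands at -1.29.

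All 22 gamma members were up-regulated, by 0.64 to 0.89 on the log2 scale. PCDHGB5 (chr5:140777514-140892542) had the lowest count of the cluster in each library. It had 703 and 467 counts in WT and 830 and 1438 counts in Helz-null cells, or 11.0, 11.2, 19.6 and 20.2 CPM, with a log2FC of 0.85 (SE 0.0751, adjusted p = 3.23e-11). Both Helz-null libraries were higher than both WT libraries. The other members stood on nearly the same counts, although their deposited widths ran from 4593 to 5669 bases. The median over the 22 members was 708 and 470.5 counts in WT and 834 and 1445.5 counts in Helz-null cells, and 19, 19, 18 and 19 of the 22 genes, PCDHGB5 included, lay within 5% of PCDHGB5 in WT replicates 1 and 2 and Helz-null replicates 1 and 2. Only PCDHGA11, PCDHGC3 and PCDHGC4 stood well above this level.

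**Figure D2:**
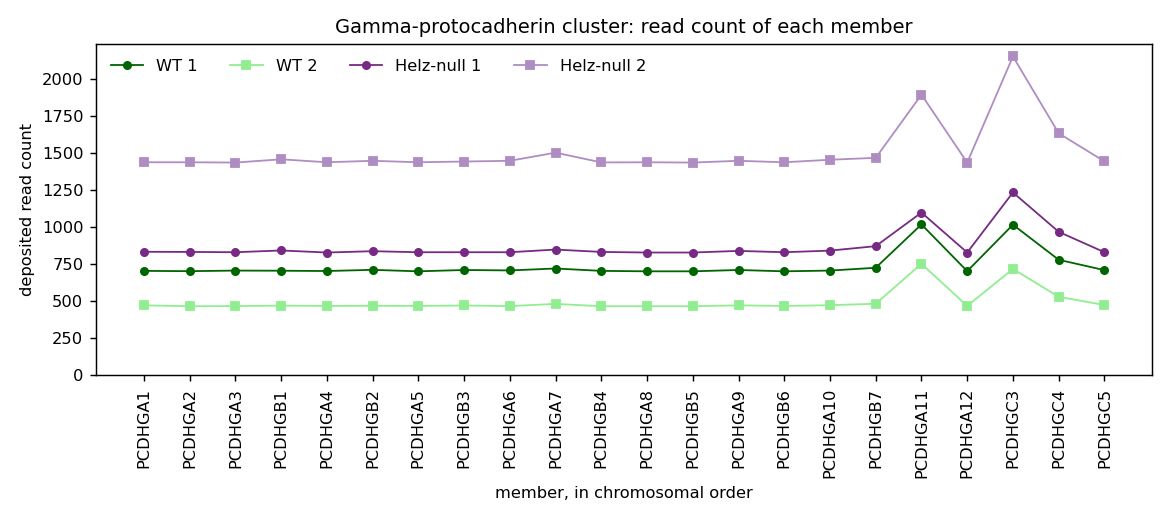
Deposited read counts (y axis) of the 22 gamma members in chromosomal order (x axis), 1 line per library. The lines are flat from PCDHGA1 to PCDHGB7, at medians of 708, 470.5, 834 and 1445.5 counts, and rise at PCDHGA11, PCDHGC3 and PCDHGC4 in all 4 libraries.

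The flat level is what reads in the constant exons give when they are counted once for each gene that holds them. Summed over the members, the deposited counts of the cluster came to 16285 and 10959 in WT and 19211 and 33214 in Helz-null cells. With the count of the lowest member taken once, and the excess of each other member over it added, they came to 1522, 1152, 1781 and 3016, so that the sum over genes was 10.7, 9.51, 10.8 and 11.0 times larger. The count of PCDHGB5 is an upper bound of the reads that every member shares, and the excess of another member over it is a count of reads that not all members hold. As 1 quantity, the shared reads had a level of 5.03 and 5.13 CPM per kb of constant exon in WT and of 9.01 and 9.26 CPM per kb in Helz-null cells, which is 5.08 ± 0.0739 and 9.14 ± 0.178 CPM per kb (SD, n = 2) and a ratio of the means of 1.80. The calls of the 19 genes on the flat level report this 1 change.

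Most of the excess reads were counted for 3 genes. PCDHGC3, PCDHGA11 and PCDHGC4 held 86.7%, 88.0%, 85.8% and 87.1% of them in WT replicates 1 and 2 and Helz-null replicates 1 and 2. No other member had more than 24 and 17 excess counts in the WT libraries or more than 43 and 67 in the Helz-null libraries. Divided by the width left to each gene outside the constant exons and summed over the cluster, the excess level was 4.45 and 5.68 CPM per kb in WT and 7.95 and 7.79 CPM per kb in Helz-null cells (5.06 ± 0.876 and 7.87 ± 0.113, SD, n = 2). In WT cells this sum was below the level of the constant exons in replicate 1 (5.03) and above it in replicate 2 (5.13). In Helz-null cells it was below that level in both libraries (9.01 and 9.26). Since WT replicate 1 also fell short, no contrast between the lines is read from these levels.

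PCDHGC3 (chr5:140855514-140892544), one of the C-type genes at the 3′ end of the cluster and known from many tissues besides neurons, had 315 and 252 excess counts in WT and 406 and 717 in Helz-null cells. These corresponded to 4.91, 6.03, 9.60 and 10.1 CPM. Per kb of the 2796 bases outside the constant exons, they were 1.76, 2.16, 3.43 and 3.60 CPM. This width is the deposited width less the annotated constant exons, and the sources do not match exactly. The annotated first exon has 2581 bases for PCDHGC3, and for PCDHGB5 2578 bases beside a remaining width of 2461. Levels per kb outside the constant exons, also those summed over the cluster, are therefore approximate. Both Helz-null libraries were above both WT libraries. With the count of the lowest member subtracted in each library, PCDHGC3 was up-regulated with a log2FC of 0.87 (SE 0.110, adjusted p = 9.14e-08), a 1.82-fold difference. From the deposited counts, shared reads included, its log2FC was 0.85 (SE 0.0654, adjusted p = 1.09e-12) at 15.9 and 17.2 CPM in WT and 29.2 and 30.2 CPM in Helz-null cells.

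PCDHGC4 (chr5:140864564-140892542), known for its role in the survival of neurons, had 78 and 64 excess counts in WT and 140 and 198 in Helz-null cells, or 1.22, 1.53, 3.31 and 2.78 CPM. On the scale per kb of its own width of 2620 bases, these were 0.464, 0.585, 1.26 and 1.06 CPM. The groups did not overlap. Its excess reads were up-regulated as well, by 1.16 on the log2 scale (SE 0.201, adjusted p = 2.11e-05), and its deposited counts by 0.89 (SE 0.0713, adjusted p = 3.57e-12).

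PCDHGA11 (chr5:140800614-140892542) was the only A-type gene with a large excess. It had 317 and 287 excess counts in WT and 270 and 459 in Helz-null cells, or 4.94, 6.87, 6.39 and 6.44 CPM. The Helz-null libraries lay between the WT libraries. Its deposited counts were called up-regulated, with a log2FC of 0.64 (SE 0.0686, adjusted p = 2.44e-09), whereas its excess reads had a log2FC of 0.14 (SE 0.130, adjusted p = 0.427), which was -0.099 (adjusted p = 0.651) without WT replicate 1 and 0.38 (adjusted p = 0.0302) without WT replicate 2. The call of PCDHGA11 from the deposited counts was thus lost once the shared reads were removed.

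The share of each gene in the excess reads was compared next. PCDHGA11 held 38.7% and 41.9% of them in WT and 28.4% and 29.1% in Helz-null cells, and PCDHGC3 held 38.5% and 36.8% in WT and 42.7% and 45.4% in Helz-null cells. The ratio of PCDHGA11 to PCDHGC3 excess reads was 1.01 and 1.14 in WT and 0.665 and 0.640 in Helz-null cells. The values did not overlap between the lines. An exact permutation of 2 libraries against 2 cannot give a two-sided p under 0.333, which this ratio had. That test therefore cannot decide whether the shares differ, and nothing is concluded from it. Relative to the shared reads, the PCDHGA11 excess was 0.451 and 0.615 in WT and 0.325 and 0.319 in Helz-null cells, the PCDHGC4 excess was 0.111, 0.137, 0.169 and 0.138 and the PCDHGC3 excess was 0.448, 0.540, 0.489 and 0.499, so that PCDHGC3 kept to the range of WT.

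Of the 22 gamma genes, 7 had enough excess reads to be tested, beside 21.4% of all 15960 genes called in the same fit. Besides PCDHGC3 and PCDHGC4, none of them was called. PCDHGA7 had 19 and 16 excess counts in WT and 20 and 67 in Helz-null cells (log2FC 1.15, adjusted p = 0.0222). PCDHGB1 had 4 and 4 in WT and 14 and 22 in Helz-null cells (log2FC 2.04, adjusted p = 0.0102). PCDHGB1 and PCDHGA10 passed the filter only through the Helz-null libraries, where they were high, so nothing is read from their differences. Most of the PCDHGA7 excess was in Helz-null replicate 2. PCDHGB7 (adjusted p = 0.113) was not called either, and the other 15 members had at most 38 excess counts over all libraries. Among these was the third C-type gene, PCDHGC5, with 8 and 8 excess counts in WT and 2 and 8 in Helz-null cells, whose deposited counts were nevertheless up-regulated by 0.84 on the log2 scale.

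**Figure D3:**
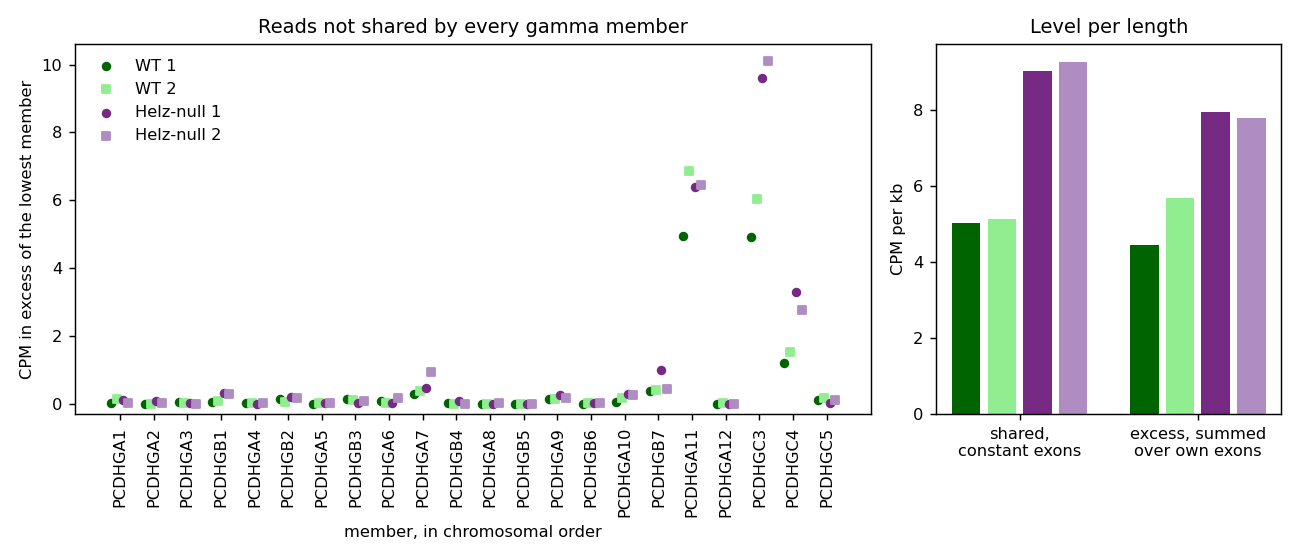
Left, CPM in excess of the lowest gamma member (y axis) for each gene in chromosomal order, with 1 point per library; right, bars for the level per kb of the shared reads and of the excess reads summed over the cluster. PCDHGC3 reads 4.91 and 6.03 CPM in WT and 9.60 and 10.1 CPM in Helz-null cells, PCDHGA11 overlaps between the lines, and most other genes lie near 0.

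The promoters of the 3 gamma genes that supplied most of the excess reads are printed because the first exon used by a transcript is set by its promoter. They run from 250 bases before to 50 bases after the start site, from RefSeq on GRCh38.p14 (plus strand): PCDHGC3 at chr5:141475716-141476015, PCDHGC4 at chr5:141484780-141485079 and PCDHGA11 at chr5:141420801-141421100. Capitals mark the letters GCCGCTG, a motif chosen after these promoters had been read, which extends the CGCT core known from clustered protocadherin promoters.
PCDHGC3 promoter: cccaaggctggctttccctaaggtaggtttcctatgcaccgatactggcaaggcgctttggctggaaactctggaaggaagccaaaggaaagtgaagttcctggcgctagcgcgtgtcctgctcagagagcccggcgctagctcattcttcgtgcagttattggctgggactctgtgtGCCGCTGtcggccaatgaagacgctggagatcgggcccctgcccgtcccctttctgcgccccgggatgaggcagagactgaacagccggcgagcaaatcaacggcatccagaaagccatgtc
PCDHGC4 promoter: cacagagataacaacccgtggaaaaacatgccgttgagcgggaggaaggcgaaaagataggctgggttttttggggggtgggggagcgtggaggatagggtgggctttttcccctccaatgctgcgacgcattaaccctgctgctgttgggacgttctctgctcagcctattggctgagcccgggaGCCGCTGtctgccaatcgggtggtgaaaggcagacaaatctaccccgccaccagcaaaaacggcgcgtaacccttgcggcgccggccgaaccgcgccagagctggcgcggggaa
PCDHGA11 promoter: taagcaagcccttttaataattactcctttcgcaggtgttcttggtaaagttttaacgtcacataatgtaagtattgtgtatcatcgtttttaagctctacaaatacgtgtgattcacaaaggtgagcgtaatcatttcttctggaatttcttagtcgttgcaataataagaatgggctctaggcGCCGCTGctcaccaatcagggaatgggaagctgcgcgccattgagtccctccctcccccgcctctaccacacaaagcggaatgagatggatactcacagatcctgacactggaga
GCCGCTG occurred once in each, 72, 64 and 65 bases before the start site of PCDHGC3, PCDHGC4 and PCDHGA11. Searched on both strands, it was found for 12 of the 20 gamma genes with a promoter in RefSeq (60.0%). It was found for 0 of 13 alpha, 0 of 14 beta and 1 of 11 non-clustered genes (9.09%), and in 3890 of all 35116 promoters (11.1%). The shorter CGCT, which GCCGCTG holds, was in 70% of all promoters. It was found for 20 of 20 gamma, 14 of 14 beta, 12 of 13 alpha and 10 of 11 non-clustered genes. A member counted if any of its promoters held the motif, whereas the 35116 promoters were counted singly, so these shares are unlike measures. Since the motif was chosen from the 3 printed promoters, its presence in them is no finding, and the count of 12 includes them.

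The alpha cluster was barely expressed and gave no call. All 15 members passed the filter, at 40 to 157 counts over the 4 libraries, and none was called by edgeR's quasi-likelihood test or by DESeq2, with 3 members (PCDHA3, PCDHA8 and PCDHAC1) at an unadjusted p under 0.05. Again the counts were shared: PCDHA12 (chr5:140254887-140391932), the lowest member, had 3 and 8 counts in WT and 14 and 15 in Helz-null cells, and 6 other genes (PCDHA4, PCDHA5, PCDHA6, PCDHA7, PCDHA9 and PCDHA13) had these same counts in every library. The log2FC of each of these 7 was 1.28 (SE 0.649, adjusted p = 0.130). Their total was exactly the 40 counts of the filter, which they passed only through the Helz-null libraries, so the sign of their difference is tied to the filter. PCDHA3, PCDHA8 and PCDHAC1 also reached it only through their higher Helz-null counts, and nothing is read from their p-values. With all counts halved, 1 of the 15 alpha genes was left to test.

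PCDHA10 (chr5:140235468-140391932) was the alpha gene with the most reads of its own. It had 33 and 37 counts in WT and 36 and 51 in Helz-null cells (log2FC 0.19, SE 0.339, adjusted p = 0.705). Above the lowest member, it had 30, 29, 22 and 36 counts, which were 63.8%, 63.0%, 62.9% and 66.7% of the excess reads of the cluster, and their log2FC was -0.14 (SE 0.369, adjusted p = 0.804). PCDHA10 thus held most of the excess reads of the cluster in every library. PCDHA8 had 5 and 11 counts in WT and 24 and 21 in Helz-null cells, of which 2, 3, 10 and 6 were excess counts, too few to be tested, and PCDHA11 had 9, 14, 16 and 21 counts (adjusted p = 0.428). The alpha C-type genes stood on the shared level, PCDHAC1 with 3, 8, 14 and 17 counts and PCDHAC2 with 3, 10, 14 and 15 counts.

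The beta cluster, whose genes share no exon, was low in both lines. Of 16 members, 4 had enough reads to be tested, 10 had between 1 and 38 counts over the 4 libraries, and PCDHB1 and PCDHB3 had none, where 3 counts would be 0.0421 to 0.0718 CPM. None was called by edgeR's quasi-likelihood test or by DESeq2, and 0 had an unadjusted p under 0.05. PCDHB2 (chr5:140474191-140478287) had 72 and 54 counts in WT and 36 and 67 in Helz-null cells, or 1.12, 1.29, 0.851 and 0.940 CPM (log2FC -0.41, SE 0.271, adjusted p = 0.262). Its CPM did not overlap between the lines, but the difference was not called at this depth. PCDHB15 had 46, 28, 18 and 86 counts, or 0.717, 0.670, 0.426 and 1.21 CPM (log2FC 0.32, SE 0.354, adjusted p = 0.525), and its 2 Helz-null libraries lay on either side of WT. Without Helz-null replicate 2 the log2FC of PCDHB15 was -0.71. PCDHB14 had 29, 22, 22 and 34 counts (log2FC 0.032, adjusted p = 0.959) and PCDHB13 had 18, 6, 11 and 17 counts (log2FC 0.14, adjusted p = 0.865). Summed over the 16 genes, the cluster had 3.35 and 3.30 CPM in WT and 2.79 and 3.45 CPM in Helz-null cells. Beta genes resemble each other closely in sequence, and how reads that map to several of them were assigned is not given in the sources used here.

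The clusters span chr5:140165721-140892544, and of 40 genes within 1000000 bases, protocadherins left out, 33 were tested. Their median log2FC was 0.00028 (range -0.21 to 0.35). With 4 up-regulated and 2 down-regulated, the share called was near the 21.5% of all genes. The 4 were ANKHD1 and the overlapping ANKHD1-EIF4EBP3 (both 0.20), DIAPH1 (0.18, SE 0.0317, adjusted p = 2.56e-05) and FCHSD1 (0.33), and HARS2 had a log2FC of -0.21. DIAPH1, a formin that nucleates actin filaments, lies on the minus strand with its 3′ end 2038 bases beyond the gamma cluster, and had 167 and 163 CPM in WT and 191 and 184 CPM in Helz-null cells. TAF7, a subunit of the general transcription factor TFIID that lies between the beta and gamma clusters, had 109 and 112 CPM in WT and 97.8 and 97.0 CPM in Helz-null cells (log2FC -0.18, SE 0.0352, adjusted p = 8.35e-05). Its groups did not overlap, and its change was opposite in sign to that of the gamma genes. SLC25A2, a mitochondrial carrier gene in the same interval, had 0 counts in every library. None of these tested neighbours came near the log2FC of 0.85 of the gamma shared reads. The protocadherins PCDH1 (log2FC 0.49) and PCDH12 (-0.66) also lie within this reach, were not called and are given with the non-clustered genes.

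**Figure D4:**
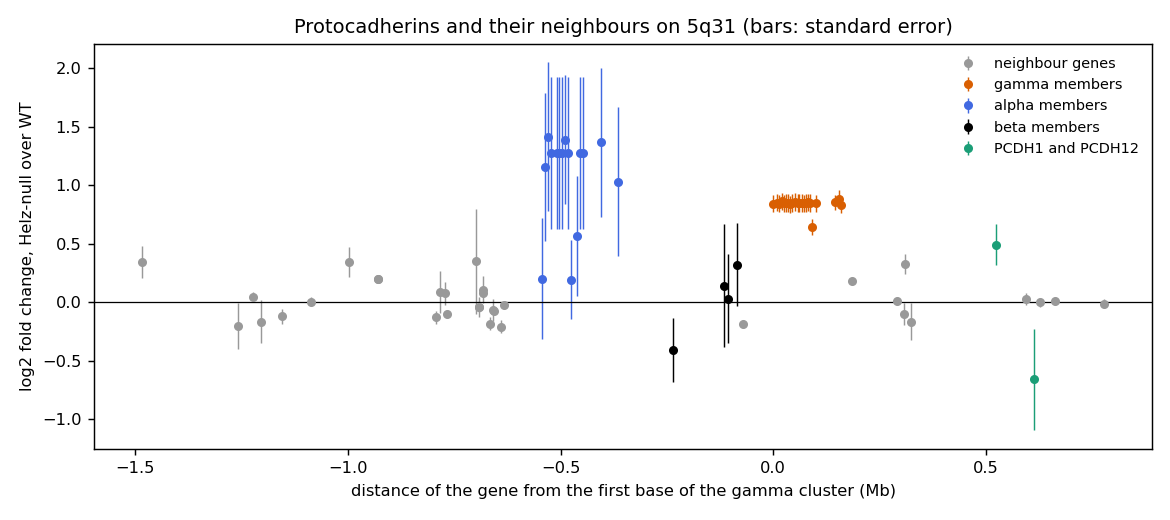
Log2FC (y axis, Helz-null over WT, SE as bars) of tested genes on chromosome 5 against their distance from the first base of the gamma cluster (x axis, Mb). Gamma members lie between 0.64 and 0.89, the neighbours other than PCDH1 and PCDH12 lie between -0.21 and 0.35, and the alpha members have long bars.

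The non-clustered genes share no exons with each other, so each is a measurement of its own. Of 13 genes, 10 were tested, and 4 were up-regulated and 1 was down-regulated, where 9.85% of all genes were called up-regulated and 11.6% down-regulated. The other 3 (PCDH11X, PCDH11Y and PCDH15, a part of the tip link of hair cells) had at most 12 counts over all libraries. In WT cells PCDH10 had the highest level per kb of the group and PCDH9 the next, and in Helz-null cells PCDH9 came before PCDH10. The rest followed in the order PCDH7, PCDH20, PCDH17, PCDH18, PCDH19 and PCDH1 in both lines, and PCDH12 and PCDH8 were near the bottom.

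PCDH10 (chr4:134070449-134129761, plus strand), which binds the WAVE complex of actin regulators and is often silenced in tumours, was the only member down-regulated. It had 11944 and 7879 counts in WT and 3299 and 5381 in Helz-null cells. These corresponded to 186 and 189 CPM and to 78 and 75.5 CPM, or to 19.5, 19.8, 8.19 and 7.92 CPM per kb. Both Helz-null libraries were far below both WT libraries, and the level was 2.44 times lower (log2FC -1.29, SE 0.0341, adjusted p = 2.90e-25). The reads of PCDH10 made up 53.0% and 52.5% of the CPM of all non-clustered protocadherins in WT and 25.6% and 24.5% in Helz-null cells. PCDH18, 4310310 bases further along the same chromosome arm and on the other strand, had 5.64 and 6.68 CPM in WT and 6.71 and 6.77 CPM in Helz-null cells (log2FC 0.14, SE 0.117, adjusted p = 0.367), and was not called. Its log2FC was 0.015 without WT replicate 1 and 0.26 without WT replicate 2.

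PCDH9 (chr13:66876966-67804577, minus strand), expressed in the developing nervous system, was up-regulated, with 83.9 and 86.6 CPM in WT and 118 and 119 CPM in Helz-null cells (log2FC 0.47, SE 0.0357, adjusted p = 7.13e-13). Per kb, it had 11.8 and 12.2 CPM in WT and 16.5 and 16.7 CPM in Helz-null cells. The libraries of each line lay close together, with a clear gap between the lines. Its antisense genes PCDH9-AS2, PCDH9-AS3 and PCDH9-AS4 had 0 counts in every library. PCDH7 (chr4:30721991-31148427, plus strand), also called brain-heart protocadherin, was up-regulated from 43.5 and 44.2 CPM to 60.6 and 65.8 CPM (log2FC 0.53, SE 0.0469, adjusted p = 3.06e-11). PCDH7 and PCDH10 lie on different arms of the same chromosome and moved in opposite directions.

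PCDH19 (chrX:99546642-99665271, minus strand), whose mutations cause an epilepsy, was up-regulated at a lower level, from 4.22 and 4.55 CPM to 7.52 and 6.59 CPM (log2FC 0.68, SE 0.124, adjusted p = 4.18e-05). Of the 4 up-regulated non-clustered genes, it had the highest log2FC and the lowest level per kb, at 0.433 and 0.466 CPM per kb in WT and 0.771 and 0.676 CPM per kb in Helz-null cells. PCDH20 (chr13:61983818-61989982, minus strand) was up-regulated from 11.9 and 12.8 CPM to 15.1 and 16.0 CPM (log2FC 0.34, SE 0.0790, adjusted p = 8.68e-04). Its call was the least firm: the adjusted p was 0.00927 with DESeq2, 0.0178 without WT replicate 1 and 0.0283 without Helz-null replicate 2. With 1 library left out, the lone library of a line is assumed to vary like those of the other line.

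The other tested genes were not called. PCDH17 (chr13:58205878-58303445, plus strand), found at synapses, had 12.5 and 13.2 CPM in WT and 14.6 and 14.4 CPM in Helz-null cells (log2FC 0.18, SE 0.0784, adjusted p = 0.0766). PCDH1 (chr5:141232655-141258811, minus strand), a protocadherin of epithelia that lies on 5q31 outside the clusters, had 2.26 and 2.11 CPM in WT and 3.33 and 2.89 CPM in Helz-null cells (log2FC 0.49, SE 0.176, adjusted p = 0.0274). In both genes the Helz-null libraries were the higher ones, without passing the threshold. PCDH12, an endothelial gene that is also on 5q31, had 30 and 18 counts in WT and 15 and 17 in Helz-null cells (log2FC -0.66, SE 0.435, adjusted p = 0.258; -0.92 to -0.35 with 1 library left out). PCDH8, induced by activity in neurons, had 18, 6, 12 and 39 counts (log2FC 0.96, SE 0.478, adjusted p = 0.120), and its log2FC ran from 0.64 without WT replicate 2 to 1.60 without WT replicate 1. Neither PCDH12 nor PCDH8 passed the test, and their standard errors were the largest of the tested non-clustered genes.

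**Figure D5:**
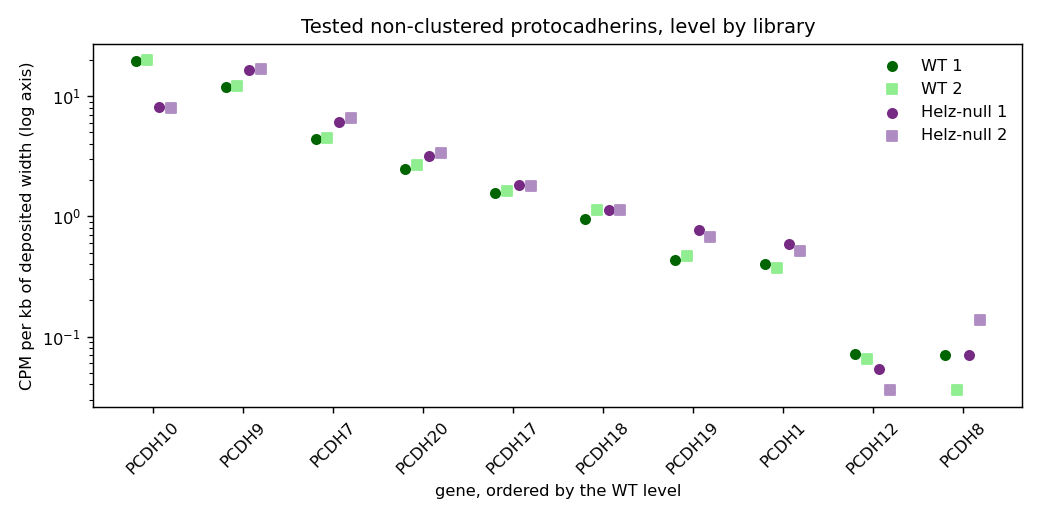
Level of the 10 tested non-clustered protocadherins in each library (y axis, CPM per kb of deposited width, log axis), ordered by the WT level. PCDH10 is the only gene with clearly lower Helz-null points among the well expressed ones, at 8.19 and 7.92 CPM per kb against 19.5 and 19.8 in WT.

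Lists of genes that act with protocadherins were read from the same fit, in which 21.5% of all genes were called. Of 20 factors for promoter choice and silencing, 3 were up-regulated and 2 down-regulated, a share near that of all genes, with a median log2FC of 0.033. STAG2, a subunit of the cohesin ring that helps bring enhancers to protocadherin promoters, was up-regulated from 385 and 386 CPM to 579 and 571 CPM (log2FC 0.58, SE 0.0271, adjusted p = 3.18e-18). The DNA methyltransferases DNMT1 (0.28) and DNMT3B (0.26) were also up-regulated, whereas WAPL, which releases cohesin from DNA, was down-regulated (log2FC -0.37, SE 0.0316, adjusted p = 1.41e-11).

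Of 23 signalling and processing partners, 8 were up-regulated and 3 down-regulated (median log2FC 0.076). WASF3 of the WAVE complex (log2FC 0.39) and the kinase FYN (0.34) were up-regulated, and BRK1, a small WAVE subunit, was down-regulated (-0.37). PSEN2, a catalytic subunit of gamma-secretase, the protease that releases protocadherin tails, was down-regulated from 48.3 and 47.4 CPM to 27.8 and 26.6 CPM (log2FC -0.82, SE 0.0522, adjusted p = 1.10e-14).

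Among 30 tested genes of other cadherin families, 5 were up-regulated and 3 down-regulated, with a median log2FC of 0.044. CDH23, the partner of PCDH15 in the tip link, was up-regulated from 8.80 and 8.19 CPM to 13.2 and 13 CPM (log2FC 0.61, SE 0.0878, adjusted p = 8.45e-07). The desmosomal cadherin DSC3 (-0.35), the flamingo cadherin CELSR3 (-0.29) and FAT1 (-0.26) were down-regulated. Of 5 tested catenins, which link classical cadherins to actin, CTNNB1 was down-regulated with a log2FC of -0.17 (SE 0.0280, adjusted p = 5.94e-06), and the median was 0.075. None of these 4 lists was tested as a set. Their medians are not set against that of the gamma genes, which restates shared reads.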

How the data were processed

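RNA of 2 HEK293T WT and 2 Helz-null cultures was sequenced as paired ends. The authors filtered out ribosomal reads (Bowtie2), aligned the rest (TopHat2, hg19), obtained a count for each gene (QuasR) and deposited the counts without normalization, with a width in bases for each gene. Versions, annotation, strand use and the handling of mates and of reads in several genes are not given in the sources used here. A second deposited table holds the authors' own edgeR comparison (FDR, p-values, mean log2 CPM and log2 fold changes) and was not used.

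Library totals were 41745401 to 70464140 counts. Counts were fitted with edgeR 4.0.16 in R 4.3.3 (TMM, genotype as the only term, quasi-likelihood F test, Benjamini-Hochberg adjustment over all 15989 genes with at least 40 counts in total, FDR under 0.005). The biological coefficient of variation was 2.74%. P-values measure the spread between 2 libraries per line. In the fit of excess reads, the count of the lowest member (PCDHGB5, PCDHA12) was subtracted from each member of its cluster. DESeq2 1.42.0, other scalings and filters, halved counts, a replicate block and left-out libraries were alternatives. Of the 27011 genes, 23632 were placed on GRCh37 with GENCODE, 22419 by symbol and 1213 by an older symbol. Promoters came from RefSeq (GRCh38.p14), which held 58 of the 66 members. Members, gene lists and tests were chosen with earlier results of these data known. Genes named with values were each tested non-clustered member, the 3 highest and the lowest member of each cluster, the C-type genes, HELZ, TAF7, SLC25A2 and up to 4 called genes per list with the largest change. PCDHGA7, PCDHGB1, PCDHGB7, PCDHGA10, PCDHB13, DIAPH1 and the other alpha and antisense genes were added after their values were seen. The edgeR fit and its calls were tested on simulated counts. The subtraction of shared reads was not tested in this way.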

Additional observations from a re-analysis of the deposited data

How the results depend on the processing

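PCDH10, PCDH9, PCDH7, PCDHGC3 and PCDHGC4 kept direction and call under every alternative run. So did PCDH19, except that it was not tested with an FPKM above 2 required (3 non-clustered genes up-regulated), and the shared level of the gamma cluster (PCDHGB5), except that it is 0 with the lowest member subtracted. The count of up-regulated gamma genes was 22 in each alternative except with the lowest member subtracted, where it was 2, since the shared reads are then removed. Down-regulated 5q31 neighbours numbered 2, but 1 with library size only, 1 with DESeq2, 3 with every gene of at least 1 count, with halved counts and with the replicate block, and 1 to 4 with 1 library left out. The cause was not tested. The log2FC changed sign, without a call, for PCDHA10 (-0.14 with the lowest member subtracted, and -0.20 to 0.59 with 1 library left out, lowest without WT replicate 1), PCDHB14 (-0.090 without WT replicate 1, -0.021 without Helz-null replicate 1 and up to 0.13 without WT replicate 2), PCDHB15 (-0.71 without Helz-null replicate 2, up to 0.79 without Helz-null replicate 1) and the excess reads of PCDHGA11 (-0.099 without WT replicate 1 and up to 0.38 without WT replicate 2, in an alternative added after seeing the data). Of 299 alternative values of single genes, 289 kept direction and side of the threshold, 4 lost the call and 6 changed sign. Over all genes, DESeq2 gave 1107 up-regulated and 1374 down-regulated genes, and leaving out 1 library gave 1076 to 1612 and 1331 to 1845. With an FPKM above 2 required, no alpha or beta gene was left to test, and with at least 200 counts no alpha gene.

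The replicate numbers are shared by the lines, but nothing ties equal numbers to 1 culture or day. The deviations of equal numbers from their group means had a correlation of 0.00073 over 15989 genes, a description across genes. With the replicate block, 1854 genes were up-regulated and 2100 down-regulated, with 22 up-regulated gamma genes and 4 up-regulated and 1 down-regulated non-clustered genes.

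Reads within a constant exon cannot be assigned to 1 gene, and an excess is the difference of 2 counts. With 2 libraries per line, no search for a deviating library was possible. Counts do not separate synthesis from decay of the RNA. The library totals exceed the mapped reads that the methods give, and whether both mates of a pair were counted was not tested. If so, the floor of 3 counts and the filter of 40 stand for fewer fragments, and the counting error is larger than the counts imply.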
